A study of Mus musculus with 76 samples.

Results

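Transcripts of 7 genes named for macrophages and the acute phase were followed through early mouse development: C1qa, C1qb, C1qc, Saa3, Lyz2, Alox15 and Cd68. They are 7 of the 48321 genes in the deposited tables, taken by symbol, and they were chosen by their 2-cell counts, where some of them stood higher in embryos of the maternal knockout than of the wild type. Their 2-cell values are therefore a description without a test, and tests are given only for the other stages. The libraries came from polyadenylated RNA of single oocytes (3 WT, 4 matKO), single 2-cell embryos (11 WT, 12 matKO), single blastocysts (14 and 14) and the extraembryonic ectoderm (ExE) of embryos at day 6.5 (10 and 8), 76 libraries in all. WT is labelled wild type, and matKO is labelled Ezhip matKO, a maternal depletion of Ezhip, which is a protein inhibitor of the Polycomb complex PRC2 and is listed in the tables as AU022751. The labels give the sex of each library but no strain, no age of the mothers and no account of how the depletion was made. All oocytes are female, and the other stages hold both sexes in both genotypes. Since donors and litters are not named, each p-value rests on the scatter among single libraries, and some of that scatter may be technical.

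One library stands apart and sets most of what the 2-cell means show. It is the fourth matKO female 2-cell embryo, called matKO female 4 here, with 8.43 megacounts. The 2-cell means of the 7 genes are given with and without it. Ezhip stood at 4.24 CPM (counts scaled to the total of the library) in this embryo, inside the 0 to 18.9 CPM of the 12 matKO embryos and below the 38.6 to 337 CPM of the 11 WT embryos. Its summed level of 10 oocyte genes was 1503 CPM (1259 to 2161, median 1693, in the other 11 matKO embryos). That of 9 genes of the 2-cell stage was 263 CPM, low in the range of the other 11 (167 to 2432, median 1053).

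C1q is the recognition molecule of the classical complement pathway, assembled from A, B and C chains that the neighbouring genes C1qa, C1qb and C1qc encode, and tissue macrophages are its main source. Lyz2 encodes lysozyme M, an enzyme that cuts bacterial cell walls, and is a standard myeloid gene. Cd68 encodes a lysosomal membrane glycoprotein that is abundant in macrophages and present at low levels in many other cells. Saa3 encodes a serum amyloid A protein made outside the liver in inflammation, largely by macrophages and epithelia. Alox15 encodes a lipoxygenase that oxygenates polyunsaturated fatty acids and is high in resident peritoneal macrophages and eosinophils. None of these genes is known as a marker of the oocyte or of the cleavage-stage embryo.

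All 7 genes lie on the minus strand of mm10, and no other annotated gene overlaps them in GENCODE. The C1q genes follow each other on chromosome 4: C1qb at 136880129 to 136886187, C1qc at 136889804 to 136893065 and C1qa at 136895917 to 136898803. Saa3 is on chromosome 7 (46711998 to 46715700), Lyz2 on chromosome 10 (117277334 to 117282274), and Alox15 (70344152 to 70352031) and Cd68 (69664213 to 69666153) are on chromosome 11. Values are sums over the exons of a gene, 3 merged exons for each C1q gene and 15 for Alox15. Lyz2 has a near-identical neighbour, Lyz1: their transcripts of 1316 and 1263 bases share 91.9% of aligned bases, with an identical run of 118 bases, so reads of the pair may have been split and the Lyz2 values are uncertain to that extent. The C1q transcripts share 48.1% to 52.6% with each other, with no identical run above 15 bases.

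RefSeq promoter windows (GRCm38.p6) were matched for 5 of the 7 genes. The 250 bases before the RefSeq start of C1qb and Cd68 are shown because C1qb is the C1q gene of the oocytes below and Cd68 is the gene with a called change. The window of C1qc lies partly inside the gene by the coordinates above and is not shown. Those of Lyz2 and Lyz1 are shown because the pair can be confused. Capitals mark GAGGAA on either strand, the core of the box bound by the myeloid factor PU.1.
C1qb chr4:136886201-136886450 (minus): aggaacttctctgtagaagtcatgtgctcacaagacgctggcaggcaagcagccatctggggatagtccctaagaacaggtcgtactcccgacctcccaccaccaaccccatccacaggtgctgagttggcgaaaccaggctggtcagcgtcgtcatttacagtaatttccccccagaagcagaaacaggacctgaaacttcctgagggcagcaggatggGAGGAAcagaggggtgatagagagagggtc
Cd68 chr11:69666171-69666420 (minus): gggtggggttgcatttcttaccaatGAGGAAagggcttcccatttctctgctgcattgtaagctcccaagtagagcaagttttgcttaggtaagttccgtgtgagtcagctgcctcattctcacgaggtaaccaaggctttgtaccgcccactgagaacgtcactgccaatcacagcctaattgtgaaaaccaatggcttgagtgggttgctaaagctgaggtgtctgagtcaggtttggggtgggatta
Lyz2 chr10:117282273-117282522 (minus): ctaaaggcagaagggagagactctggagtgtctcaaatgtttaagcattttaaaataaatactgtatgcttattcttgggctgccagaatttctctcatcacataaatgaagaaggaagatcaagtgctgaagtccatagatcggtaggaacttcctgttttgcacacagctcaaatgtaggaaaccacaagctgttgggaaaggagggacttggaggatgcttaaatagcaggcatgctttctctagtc
Lyz1 chr10:117292869-117293118 (minus): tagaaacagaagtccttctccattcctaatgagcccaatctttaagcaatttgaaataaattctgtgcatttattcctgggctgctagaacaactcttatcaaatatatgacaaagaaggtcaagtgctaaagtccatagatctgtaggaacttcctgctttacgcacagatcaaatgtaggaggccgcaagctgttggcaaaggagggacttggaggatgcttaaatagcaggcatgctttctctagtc
GAGGAA occurred once in each of the windows of C1qb and Cd68 and in neither lysozyme window, and 23.2% of all 32851 promoter windows of this length held it. The AP-1 letters TGAGTCA occurred 2 times upstream of Cd68, and 4.46% of all windows held them at least once. The letters TATAAA were in none of the 4 windows, against 12.4% of all. A match is a match of letters and shows no binding. The windows of Lyz1 and Lyz2 shared 79.4% of aligned bases, and the last 50 bases before the start were the longest identical run.

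Levels by stage are given as CPM within each stage, and the 4 stages were scaled separately, so levels set side by side across stages are approximate. A library is said to carry a gene at 1 CPM or more and 5 counts or more. A count of 0 allows up to 3 counts, which is 0.116 to 0.563 CPM in the oocyte libraries, 0.238 to 2.69 in the 2-cell, 0.0827 to 0.799 in the blastocyst and 0.127 to 1.01 in the ExE libraries, for counting error only. Oocyte libraries held 5.27 to 26.5 megacounts, 2-cell libraries 1.05 to 14.1 megacounts, blastocysts 4.06 to 31.99 megacounts and ExE 2.74 to 26.7 megacounts.

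**Figure D1:**
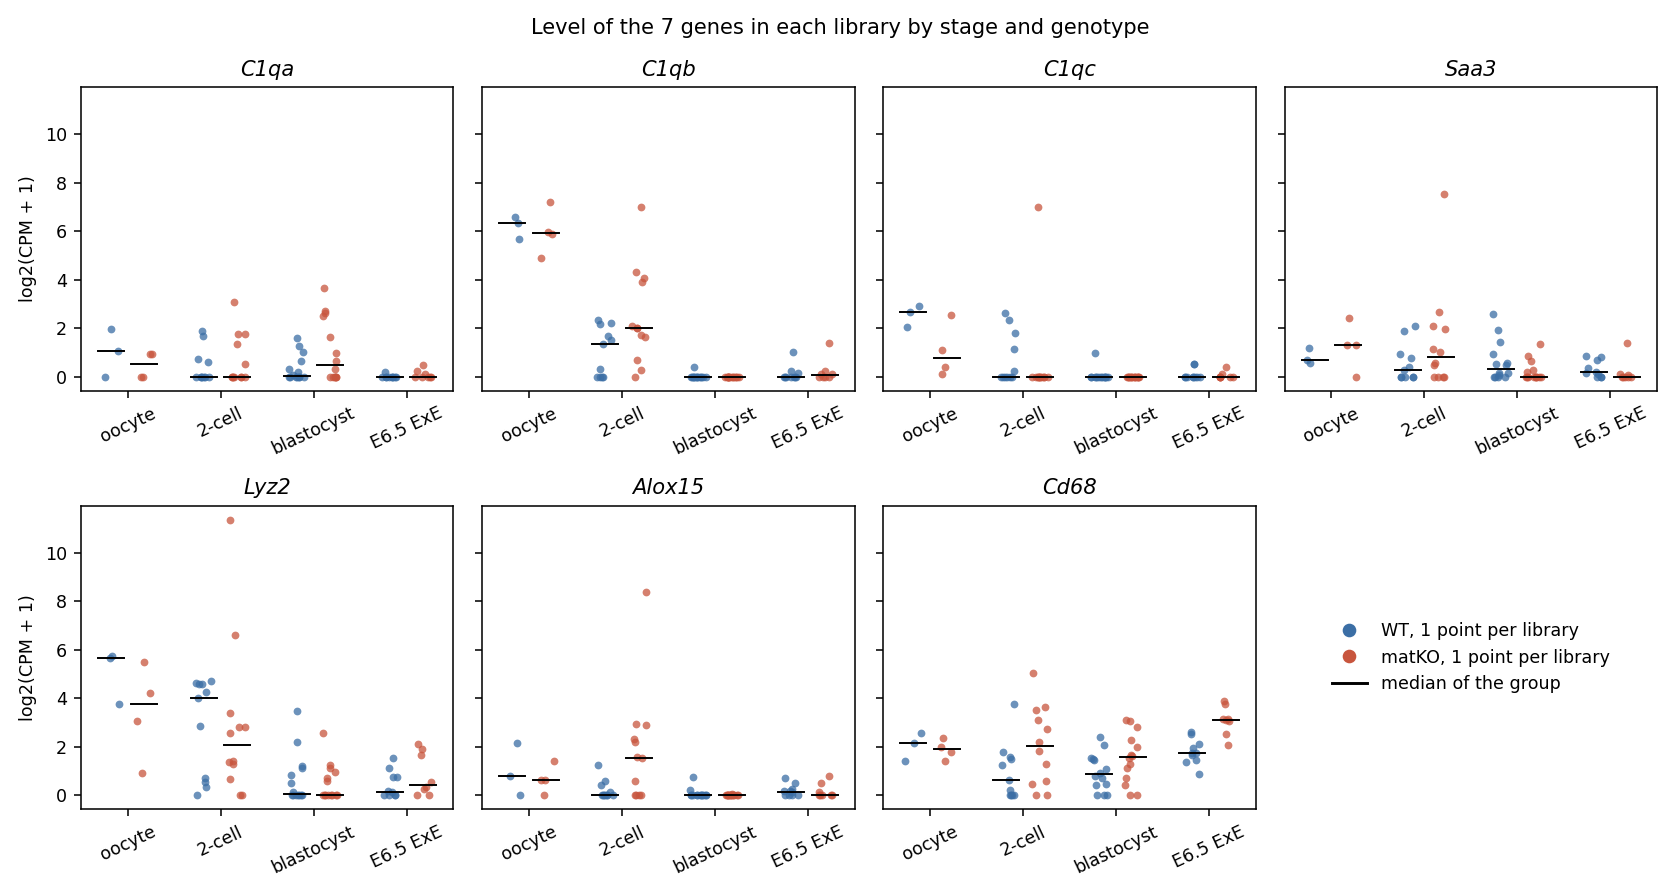
Level of each of the 7 genes as log2(CPM + 1) in each library, by stage and genotype (WT blue, matKO red, black lines at the medians). C1qb and Lyz2 are highest in oocytes by median, 1 matKO 2-cell embryo lies above the other 22 2-cell embryos for every gene, and Cd68 is present in every ExE library.

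The C1q genes were seldom carried together: 2 of 7 oocytes, both WT, and 2 of 23 2-cell embryos, WT male 4 and matKO female 4, carried all 3. In oocytes the transcript present was C1qb: the 3 WT oocytes held 94.7, 49.7 and 80.8 CPM, and the 4 matKO oocytes 58.7, 60.97, 29.2 and 147 CPM. The 2 genotypes overlapped, and the highest and lowest oocytes were both matKO. C1qc stood at 5.42, 6.46 and 3.20 CPM in WT and at 4.92, 1.13, 0.341 and 0.0776 CPM in matKO oocytes, so 1 matKO oocyte lay inside the WT range and 3 below it. C1qa stood at 2.94, 1.08 and 0 CPM in WT and at 0.906, 0, 0 and 0.892 CPM in matKO. Per kilobase of exon, C1qb made up 91.2% to 99.3% of the 3 chains in each of the 7 oocytes. MatKO oocyte 4, for example, had 3783 counts of C1qb beside 2 counts of C1qc and 23 of C1qa. Chains of C1q occur in the protein in equal numbers, which is background and not a measurement here.

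C1qb was higher in oocytes than at later stages. WT oocytes (49.7 to 94.7 CPM) lay above all WT 2-cell embryos (0 to 4.11), blastocysts (0 to 0.331) and ExE (0 to 1.02), while the last 3 overlapped each other. In matKO the oocytes (29.2 to 147 CPM) overlapped the 2-cell embryos (0 to 125) only through matKO female 4. The other 11 matKO 2-cell embryos reached 18.8 CPM. Among them matKO male 5, male 6 and female 6 stood at 15.9, 18.8 and 14.0 CPM, in libraries of 1.48 to 2.09 megacounts, and the remaining 8 at 0 to 3.24 CPM. Male 5, male 6 and female 6 have the consecutive identifier numbers 46, 47 and 48, whose part in the C1qb level was not tested. Mean C1qb at the 2-cell stage was 1.56 CPM ± 1.64 (SD, n = 11) for WT embryos, against 15.7 CPM ± 35.2 (SD, n = 12) for matKO embryos, or 5.76 CPM ± 6.90 (SD, n = 11) without matKO female 4. C1qb was the only C1q gene carried in 10 of the 23 2-cell embryos, 3 WT and 7 matKO. C1qc was at 0 in all matKO 2-cell embryos other than matKO female 4, and 4 WT embryos carried it, at 1.24 to 5.23 CPM.

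Of the 28 blastocysts 20 carried no C1q gene, and C1qa made up most of the counts seen. Median C1qa was 0.105 CPM there, against 0.892 CPM in oocytes. Over the 28 blastocysts C1qa had 410 counts, C1qb 12 and C1qc 15, and all 8 blastocysts that carried a C1q gene carried C1qa alone. The 14 WT blastocysts ranged from 0 to 2.05 CPM with a median of 0.0274, and the 14 matKO blastocysts from 0 to 11.7 CPM with a median of 0.414. The groups overlapped, and 4 matKO blastocysts, female 5 and males 2, 4 and 5, lay above every other blastocyst at 4.74 CPM or more, while female 2 was next at 2.14. Mean C1qa was 0.391 CPM ± 0.646 (SD, n = 14) for WT embryos, against 2.23 CPM ± 3.45 (SD, n = 14) for matKO embryos. In ExE the 3 genes together had 58 counts over 18 libraries, and 2 libraries carried C1qb.

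**Figure D2:**
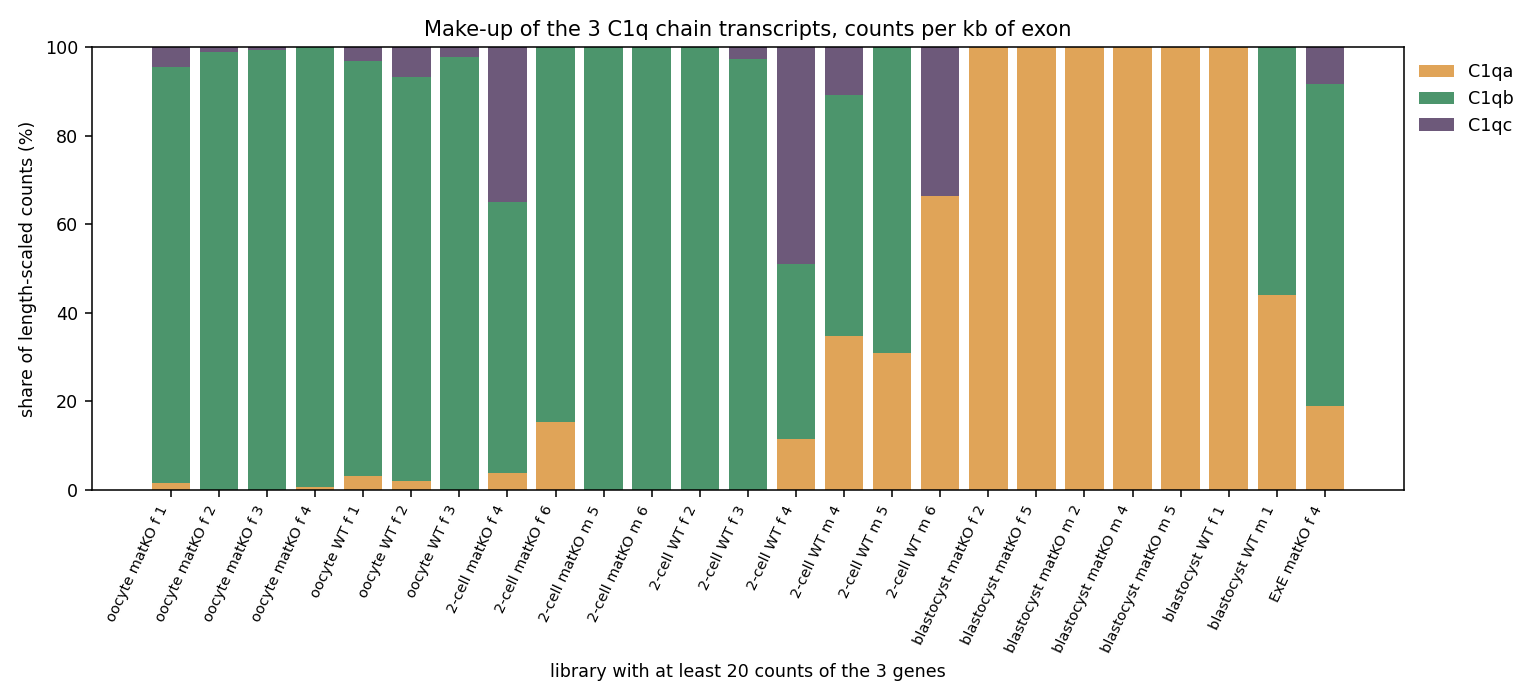
Share of C1qa, C1qb and C1qc in their summed counts per kilobase of exon, for each library with at least 20 counts of the 3 genes. C1qb fills 91.2% or more of each oocyte bar, C1qa fills 6 of the 7 blastocyst bars, and matKO female 4 of the 2-cell stage holds 3.85% C1qa, 61.2% C1qb and 34.9% C1qc.

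The genotypes were compared with edgeR's quasi-likelihood test in oocytes, blastocysts and ExE, with Benjamini-Hochberg adjusted p-values over all genes of the stage, and a second adjusted p in parentheses from the fit with estimateDisp dispersions. In oocytes 6 of the 7 genes passed the filter on low counts, all but Alox15, and 0 were called, where 0.0202% of all genes tested were called in either fit, all of them lower. None of the 6 reached an unadjusted p under 0.05, and DESeq2 called 0 too. The log2 fold change of matKO over WT was 0.02 ± 0.44 (SE) for C1qb (adjusted p 0.996), -1.62 ± 0.80 for C1qc (adjusted p 0.63, and 0.85) and -1.07 ± 0.97 for C1qa (adjusted p 0.80). The sign for C1qa rested on WT oocyte 1 (0.35 without it), and that for C1qb turned without WT oocyte 2 or matKO oocyte 4 (-0.21 and -0.61).

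In blastocysts 4 of the 7 genes passed the filter, C1qa, Saa3, Lyz2 and Cd68, and edgeR's quasi-likelihood test called 0 of them, where 13.4% of all genes were called (5.58% as higher and 7.78% as lower). The second fit called 6.3% of all genes (2.75% higher, 3.55% lower) and 0 of these 4. C1qa was the 1 gene under an unadjusted p of 0.05, and DESeq2 called 0. C1qa differed by 2.09 ± 0.78 log2 units (SE), with an adjusted p of 0.065 (0.24), higher in the matKO mean. The call turned on small changes: the adjusted p was 0.045 without the identifier prefix as a term, and it passed 0.05 in 6 of 28 fits that left out 1 blastocyst (0.024 without WT female 1, 0.043 to 0.049 without matKO female 3, female 4, male 1, male 3 or male 6). Without matKO male 2 the difference was 1.20 with an adjusted p of 0.39. Within the prefix D405T it was 2.35 ± 0.96 (adjusted p 0.12; 10 WT, 6 matKO), and within D707T 1.46 ± 1.31 (adjusted p 0.58; 4 WT, 8 matKO). In a whole blastocyst, fewer cells of a type and less RNA per cell cannot be told apart.

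Lyz2 was high in oocytes beside C1qb. The WT oocytes held 49.99, 53.1 and 12.8 CPM and the matKO oocytes 43.8, 17.8, 7.28 and 0.892 CPM. Per kilobase, Lyz2 in WT oocytes (10.1 to 41.97 CPM per kb) lay below C1qb (45.7 to 87.0) and above C1qc (1.66 to 3.35). The difference between genotypes was -1.16 ± 0.83 log2 units (SE; edgeR adjusted p 0.74, and 0.88). Lyz1 was at 0 in 6 of the 7 oocytes.

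At the 2-cell stage the 11 WT embryos ranged from 0 to 25.1 CPM of Lyz2 with a median of 15.1, and the 12 matKO embryos from 0 to 2641 CPM with a median of 3.27. The means were 12.4 CPM ± 10.9 (SD, n = 11) for WT embryos, against 231 CPM ± 760 (SD, n = 12) for matKO embryos, and 11.7 CPM ± 28.3 (SD, n = 11) in matKO without matKO female 4. The matKO mean was thus higher with that embryo and slightly lower without it. Among WT embryos carriage of Lyz2, though not its level, went with Cyp11a1, the first enzyme of steroid synthesis and a gene of granulosa cells. The 8 WT embryos with more than 2 counts of Cyp11a1 (36.05 to 346 CPM) included the 7 that carried Lyz2, at 6.26 to 25.1 CPM, and 1 with no Lyz2 count in a library of 1.19 megacounts. The 3 WT embryos with 2 counts of Cyp11a1 or fewer had 0.261 to 0.639 CPM of Lyz2. They have the consecutive identifier numbers 25, 26 and 27 and are the deepest WT 2-cell libraries, at 14.1, 9.42 and 11.7 megacounts. The part of number or depth was not tested. Cyp11a1 was at 0 in all 12 matKO embryos, 8 of which carried Lyz2, and its part in the Lyz2 level was not tested.

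In blastocysts Lyz2 was at 0 in 7 of 14 WT and 8 of 14 matKO libraries and reached 10.2 and 4.87 CPM. The difference was -0.68 ± 0.78 (SE; edgeR adjusted p 0.63, and 0.88), and its sign turned within D405T (0.59). In ExE the WT pieces ranged from 0 to 1.90 CPM with a median of 0.115, and the matKO pieces from 0 to 3.36 CPM with a median of 0.358. The ranges overlapped widely, and the difference of 1.47 ± 0.78 (SE) had an edgeR adjusted p of 0.15 (0.53). It was called without WT male 4, the highest WT piece (2.20, adjusted p 0.024).

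Saa3 was scarce outside 1 embryo. WT oocytes held 0.602, 1.26 and 0.492 CPM and matKO oocytes 4.34, 1.50, 1.48 and 0 CPM, with a difference of 1.11 ± 1.04 log2 units (SE; edgeR adjusted p 0.81), which was -0.45 without matKO oocyte 1. Of 2-cell embryos, 2 of 11 WT and 5 of 12 matKO carried Saa3. The means were 0.735 CPM ± 1.16 (SD, n = 11) for WT embryos, against 16.5 CPM ± 52.4 (SD, n = 12) for matKO embryos, or 1.35 CPM ± 1.79 (SD, n = 11) without matKO female 4. The next highest embryo, matKO male 4, held 5.46 CPM. In blastocysts WT ranged from 0 to 4.97 CPM and matKO from 0 to 1.52, and the difference of -1.35 ± 0.74 (SE) was not called (edgeR adjusted p 0.24, and 0.18). In ExE 1 of 18 libraries carried Saa3.

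Alox15 was below the filter at every stage except the 2-cell stage. In oocytes 1 WT and 1 matKO library carried it, at 3.44 and 1.68 CPM. In blastocysts it had 15 counts over 14 WT and 1 count over 14 matKO libraries, and in ExE no library carried it. At the 2-cell stage 1 of 11 WT embryos carried it, WT female 3 at 1.37 CPM, and 6 of 12 matKO embryos. These were matKO female 4 at 329 CPM, male 3 at 6.67, female 3 at 6.49, male 2 at 4.08, female 6 at 3.65 and male 1 at 1.91. The mean was 0.213 CPM ± 0.421 (SD, n = 11) for WT embryos, 29.5 CPM ± 94.4 (SD, n = 12) in matKO and 2.30 CPM ± 2.57 (SD, n = 11) in matKO without matKO female 4. By identifier number, 5 of the 6 carriers are consecutive, numbers 40 to 44, with matKO female 4 as number 41. Number 40, matKO female 3, also held the second highest Lyz2 level of the 2-cell stage, 96.4 CPM. What a consecutive number stands for is not given in the labels, and its part in these levels was not tested.

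Cd68 was the member seen most widely. All 7 oocytes carried it, at 3.46, 4.94 and 1.64 CPM in WT and 3.04, 2.44, 1.71 and 4.23 CPM in matKO, with a difference of -0.05 ± 0.52 log2 units (SE; edgeR adjusted p 0.99). At the 2-cell stage 5 of 11 WT and 8 of 12 matKO embryos carried it, with means of 1.92 CPM ± 3.70 (SD, n = 11) for WT, against 6.33 CPM ± 9.05 (SD, n = 12) for matKO, or 3.998 CPM ± 4.26 (SD, n = 11) without matKO female 4. In blastocysts 6 of 14 WT and 10 of 14 matKO libraries carried it, at up to 4.23 and 7.73 CPM, and the difference of 0.57 ± 0.50 (SE) was not called (edgeR adjusted p 0.51, and 0.62).

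In ExE Cd68 rose in matKO. The 10 WT pieces ranged from 0.850 to 5.20 CPM with a median of 2.34, and the 8 matKO pieces from 3.22 to 13.7 CPM with a median of 7.71. The ranges overlapped at 3.22 to 5.20 CPM, where 3 WT and 2 matKO pieces lay, and the other 6 matKO pieces were above every WT piece. The means were 2.72 CPM ± 1.38 (SD, n = 10) for WT, against 8.10 CPM ± 3.53 (SD, n = 8) for matKO. The difference was 1.59 ± 0.32 log2 units (SE), with an edgeR adjusted p of 7.8e-04 (0.0044). Of the 7 genes 2 passed the filter in ExE, Lyz2 and Cd68, and 1 was called, where 31.2% of all genes were called (17.4% as higher, 13.8% as lower), so a called gene is no rarity at this stage. The second fit called Cd68 too, among 24.9% of all genes (14.1% higher, 10.7% lower). The difference between the sexes in this change had an edgeR adjusted p of 0.998. All WT pieces carry the identifier prefix D1042C and all matKO pieces D707T, so the prefix and the genotype cannot be told apart.

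**Figure D3:**
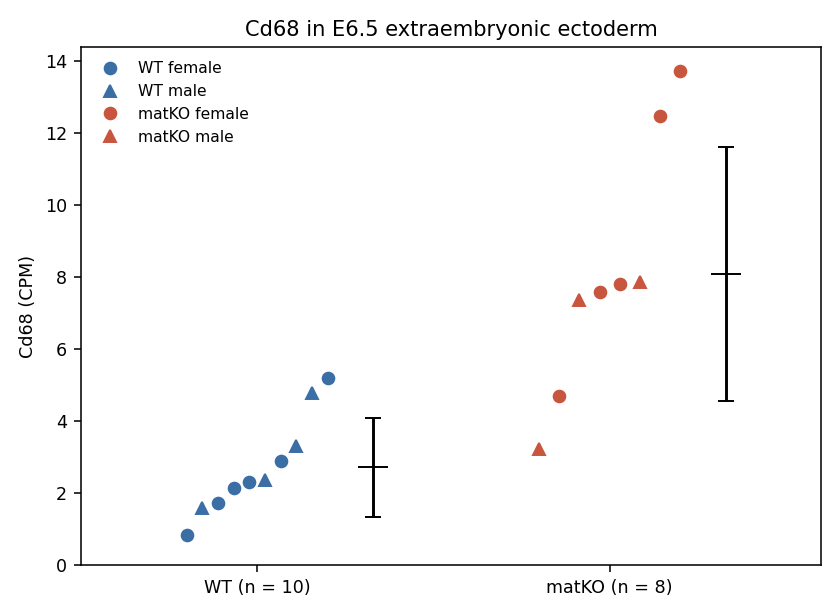
Cd68 in CPM in each piece of ExE (circles female, triangles male), with the mean and SD of each genotype in black. WT pieces lie at 0.850 to 5.20 CPM and matKO pieces at 3.22 to 13.7, with an overlap between 3.22 and 5.20.

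Genes of other lists were also called between the genotypes in ExE. Whether they ran with Cd68 from piece to piece was not tested. Of 18 lysosome genes 17 were tested, and 9 were called higher and 1 lower in either fit, where 17.4% of all genes were called higher in the first and 14.1% in the second (median log2 fold change 0.84, against -0.08 over all genes tested). Psap, the precursor of the saposins, rose by 2.39 ± 0.27 log2 units (SE), Grn, which encodes progranulin, by 1.65 ± 0.22, Tfeb, a transcription factor of lysosomal genes, by 1.83 ± 0.30 and Lamp1, a lysosomal membrane protein, by 1.94 ± 0.38 (edgeR adjusted p 1.5e-06, 8.9e-06, 8.9e-05 and 7.2e-04). Lipa, the lysosomal acid lipase, fell by 1.31 ± 0.37 (adjusted p 0.010). Of 20 macrophage genes 7 were tested and 3 were called higher, and 2 in the second fit: Csf1r, the receptor for the macrophage growth factor CSF1, by 3.28 ± 0.77 (adjusted p 0.0023, and 0.037), Laptm5 by 1.75 ± 0.56 (adjusted p 0.019, and 0.20) and the protease Lgmn by 0.75 ± 0.26 (adjusted p 0.033, and 0.043). Median Csf1r was 0.156 CPM in WT and 4.45 CPM in matKO pieces, and median Laptm5 0.7185 and 1.425 CPM. Both WT medians lay inside the 0.127 to 1.01 CPM that a count of 0 allows in ExE. The summed macrophage list spanned 820 to 3228 CPM in WT and 1153 to 6101 CPM in matKO pieces. WT pieces carried 3 to 7 of its 20 genes and matKO pieces 4 to 6. The sum had medians of 1721 and 2748 CPM, beside 953.5 and 1753 CPM for Apoe and 615 and 824 CPM for Lgmn. It therefore follows mainly Apoe and Lgmn, and neither the sum nor the calls are read as a rise of the whole list. The C1q genes, which macrophages make, had 58 counts in these 18 libraries, as given above. Of 15 genes of decidua and uterine stroma, the maternal tissue around the conceptus, 13 were tested and 9 were called higher, and 8 in the second fit (median 3.06), with summed levels of 37.3 to 199 CPM in WT and 60.5 to 1108 CPM in matKO. The summed erythroid list spanned 0.196 to 37.9 CPM in WT and 2.17 to 382 CPM in matKO. The part of these cell types in the Cd68 level was not tested.

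Whether the same libraries carried all 7 genes was counted next. At 1 CPM and 5 counts, matKO female 4 was the 1 library of 76 to carry all 7. The 7 oocytes carried 2 to 6 of the genes, and 5 of the 7 oocytes carried 5 or more. The 11 WT 2-cell embryos carried 0 in 3 cases, 1 to 4 in 5 cases and 5 in 3 cases, and the 12 matKO 2-cell embryos 1 to 5 in 11 cases and 7 in 1 case. No blastocyst and no ExE piece carried more than 3. At 0.5 CPM, 3 libraries carried all 7, 2 of them oocytes, and at 5 CPM matKO female 4 remained the only one. The 7 genes were thus not present as 1 block in most libraries: C1qb and Cd68 were carried by all 7 oocytes, Lyz2 by 6, C1qc by 5, Saa3 by 4, and C1qa and Alox15 by 2 each, and of the 7 WT 2-cell embryos with Lyz2, 2 carried C1qa, 2 Saa3 and 1 Alox15.

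**Figure D4:**
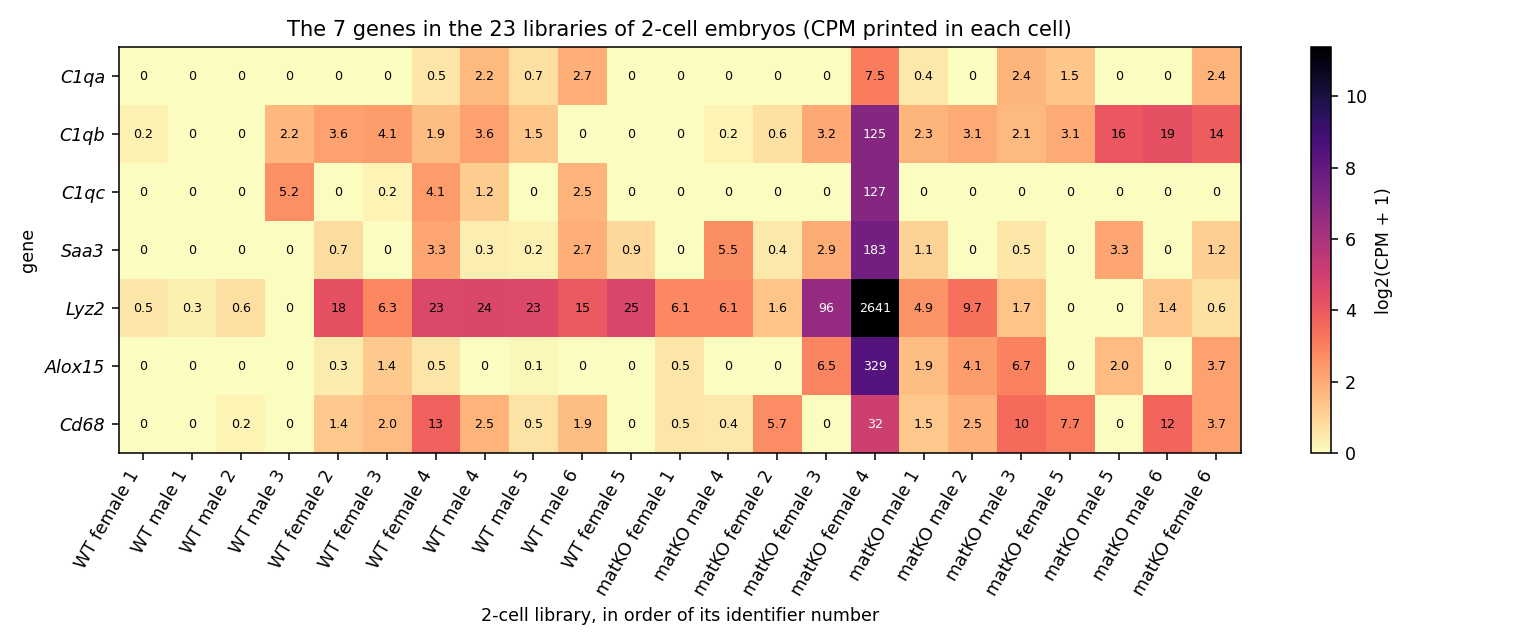
CPM of the 7 genes in each of the 23 libraries of 2-cell embryos, ordered by identifier number and coloured by log2(CPM + 1). The column of matKO female 4 is the highest in every row, and Lyz2 is seen in 7 WT embryos at 6.26 to 25.1 CPM.

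In matKO female 4 the counts were 55 for C1qa, 916 for C1qb, 928 for C1qc, 1334 for Saa3, 19291 for Lyz2, 2404 for Alox15 and 234 for Cd68. In CPM these were 7.53, 125, 127, 183, 2641, 329 and 32.03. The embryo lay above the next library by 2.80 times for C1qa, 6.68 for C1qb, 24.3 for C1qc, 33.5 for Saa3, 27.4 for Lyz2, 49.4 for Alox15 and 2.52 for Cd68. It alone supplied 46.9% to 95.7% of the counts of each gene over all 23 2-cell libraries, least for Cd68 and most for Alox15. Per kilobase the order in this embryo was Lyz2 (2086 CPM per kb), Alox15 (134), C1qb (115), Saa3 (70.1), C1qc (65.8), Cd68 (25.5) and C1qa (7.24). C1qc made up 34.9% of the 3 C1q chains here, and at most 6.68% in any oocyte. Lyz1 had 199 counts beside the 19291 of Lyz2.

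Genes of macrophages were present beside the 7. Of a list of 20 macrophage genes, matKO female 4 carried 17, and 12 were above all 22 other 2-cell embryos, which carried 3 to 15 of the list. By the same rule it was highest for 1 of 7 endothelial, 1 of 15 cumulus and granulosa and 1 of 15 decidua and uterine stroma genes. It was highest for 0 of 10 oocyte, 0 of 9 2-cell and 0 of 6 inner cell mass genes. The share of all genes for which it was highest was not counted, so these counts and those of the lists below have no such share beside them. Adgre1, which encodes the macrophage antigen F4/80, stood at 59.7 CPM against at most 1.01 elsewhere, Itgam, an integrin chain of myeloid cells, at 56.9 against 7.34, and Tyrobp, a signalling adaptor, at 47.9 against 4.29. Csf1r stood at 26.4 against 3.74 CPM, and Apoe, a lipid carrier made by macrophages and other cells, at 1095 against 55.4. Ms4a7 and Trem2 were at 0, Cd163 at 0.821 CPM, and Mrc1 at 13.3 CPM lay below the 49.4 CPM reached elsewhere. Fcgr3 and Lgmn, also in the list, were carried by every 2-cell embryo. The list summed to 2878 CPM in this embryo, 729 to 1719 CPM in WT and 527 to 1432 CPM in the other matKO embryos.

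Of 8 genes of peritoneal macrophages all 8 were carried and 4 were above all other embryos. Cd5l, a secreted scavenger protein, stood at 69.3 CPM against at most 0.218, Prg4, which encodes lubricin, at 240 against 26.8, Icam2 at 17.5 against 12.7 and the coagulation factor F5 at 11.1 against 1.03. Gata6, which specifies peritoneal macrophages and also early endoderm, was at 7.94 CPM, inside the range of the other embryos. Of 12 granulocyte genes 3 were carried, Csf3r at 11.1, Camp at 4.52 and Mpo at 2.88 CPM, and of 10 lymphocyte and natural killer cell genes 4, at 2.88 to 3.56 CPM. In neither list was any gene above all other embryos. S100a8, S100a9, Ly6g, Prg2 and Epx were at 0 in all 23 2-cell embryos. None of the 8 erythroid genes had a count.

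**Figure D5:**
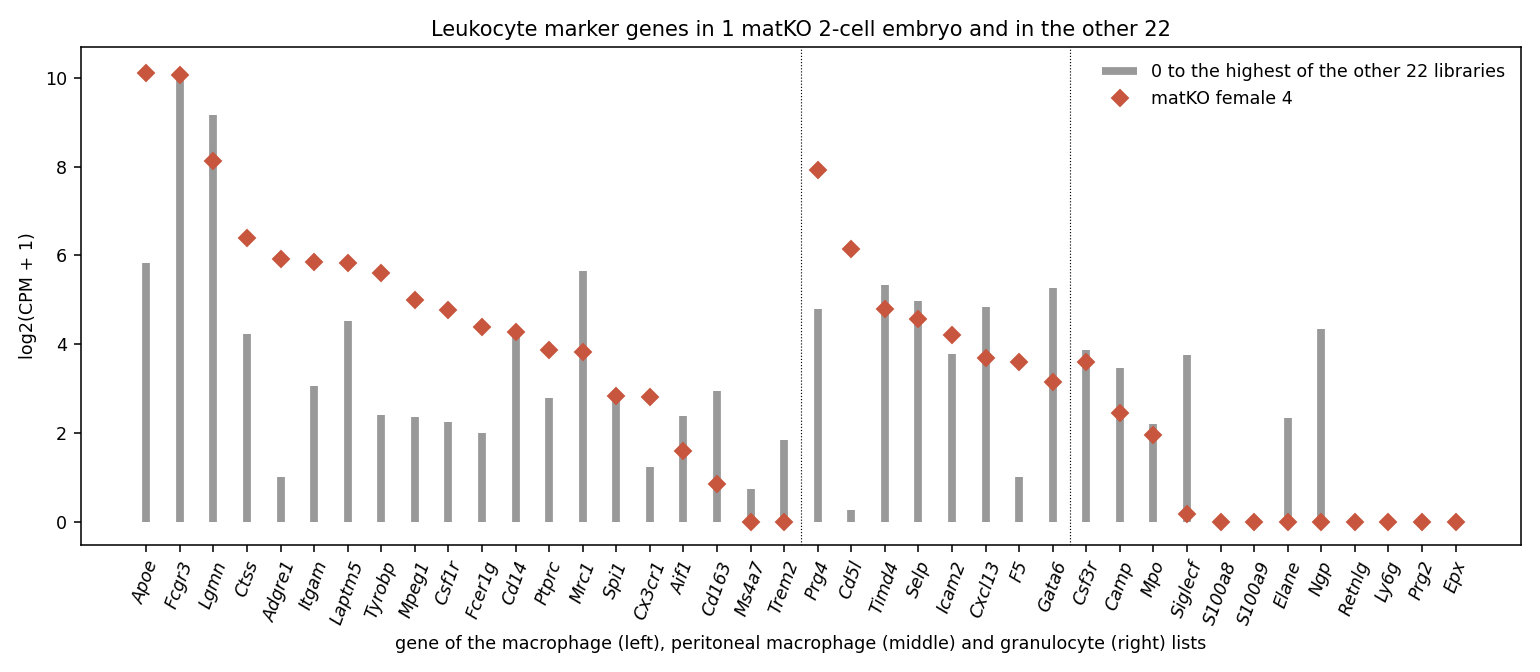
Level as log2(CPM + 1) of the genes of 3 leukocyte lists in matKO female 4 (diamonds) beside the span from 0 to the highest of the other 22 2-cell embryos (grey bars). Diamonds stand above the bars for 12 of 20 macrophage genes, 4 of 8 peritoneal macrophage genes and 0 of 12 granulocyte genes.

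The pathway neighbours of the 7 genes gave a split picture in this embryo. Of 17 genes of classical complement and C1q receptors it carried 12, and 5 were above all others: C4b at 248 CPM against 1.83, C3 at 60.6 against 13.4, and the receptors C3ar1, C5ar1 and Cd93 at 2.46 to 3.83 CPM. Of the protease genes that work with C1q, C1ra and C1rb were at 0 and C1s1 at 0.684 CPM, and C1s2 at 31.8 CPM was below the 46.9 reached elsewhere. Of 18 acute-phase genes 1 was carried, Hp, which encodes haptoglobin, at 51.3 CPM against 43.3 elsewhere, and the liver genes Saa1, Saa2, Orm1, Crp and Fgb were at 0. Saa3 was therefore not accompanied by the other serum amyloid genes. Of 11 lipoxygenase pathway genes Alox5ap, the partner of 5-lipoxygenase, stood at 25.5 CPM against 2.22 and Ltc4s, which makes leukotriene C4, at 7.12 against 2.55, while Alox5 at 4.52 CPM was below the 9.12 reached elsewhere. All 18 lysosome genes were carried and 8 were above all others, most by small margins, such as Ctsb at 983 against 960 CPM. Of 22 cytokine and toll-like receptor genes Ccl6 (55.7 against 4.03 CPM), Ccl9, Tlr4 and Chil3 were above all others, and Tnf, Il1b and Il6 were at 0.

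Over all genes, 49 stood at 5 CPM or more and at least 10 times above every other 2-cell embryo in matKO female 4. The same count was 0 to 21 in the other 22 embryos, with a median of 2. The 49 include 4 of the 7 genes, Lyz2, Alox15, Saa3 and C1qc, 9 genes of the lists already described, and 17 that had no count in any other 2-cell embryo. Together they made up 0.583% of the counts of the library. Among the genes outside the lists, chosen here after their values were seen, are some of mast cells: the chymases Cma1 and Mcpt4 at 92.7 and 22.2 CPM, carboxypeptidase Cpa3 at 52.4, tryptase Tpsb2 at 34.8 and the IgE receptor chain Fcer1a at 19.6 CPM. Others are known from macrophages: the complement receptor Vsig4 at 22.3 CPM, the scavenger receptor Msr1 at 21.1 and the chemokine receptor Ccr2 at 10.5 CPM.

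At the 2-cell stage as a whole the macrophage list did not separate the genotypes. Of its 20 genes 9 passed the filter, and edgeR's quasi-likelihood test called 0 in either direction, where 3.13% of all genes were called, 1.37% higher and 1.76% lower. The second fit called 0 of the 9 and 0.731% of all genes (0.31% higher, 0.421% lower). An unadjusted p under 0.05 was reached by 2 genes that were higher and 1 that was lower, and DESeq2 called 0. Without a filter 5 genes were called higher, and in 3 of 23 fits that left out 1 embryo (matKO female 1, female 2 or male 4) 1 gene was. Of the peritoneal macrophage list Prg4 was called higher at 2.59 ± 0.63 log2 units (SE; adjusted p 0.021, and 0.094) and Gata6 lower at -2.29 ± 0.63 (adjusted p 0.035, and 0.23), and of the complement list C3 was higher at 2.73 ± 0.79 (adjusted p 0.045, and 0.57). None of these 3 was called by the second fit. Without matKO female 4 neither Prg4 nor C3 was called: Prg4 differed by 1.12 ± 0.44 (edgeR adjusted p 0.13), with a matKO mean of 11.1 CPM against 4.64 in WT. C3 differed by 0.99 ± 0.74 (adjusted p 0.44), and its matKO mean of 2.04 CPM was then below the WT mean of 2.30. Gata6 was still lower (-3.09 ± 0.73, adjusted p 0.013, and 0.10). Of the macrophage list 8 genes were then tested and 0 called, and their median log2 fold change was 0.06, against 0.80 with this embryo. These come from the contrast by which the 7 genes were picked.

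The genes whose levels ran most like the mean of C1qa, C1qb and C1qc over the 23 2-cell libraries, by Pearson correlation of log2(CPM + 1) among 17225 genes carried by at least 3 of them, were Trim12a, Fn1, Slfn4, Igsf6, Fcer1g, Tyrobp, Mpeg1, Gm15201, Ccl6 and Prg4. Their r was 0.78 to 0.85 and fell to between 0.19 and 0.69 without matKO female 4, so the likeness rested largely on 1 library. For Saa3 the 5 most alike were Igsf6, Fcer1g, Pf4, Mpeg1 and Hpgds (r 0.82 to 0.88, and 0.33 to 0.60 without that library), and for Alox15 they were Itgam, Cybb, Hpgds, Gm13055 and Gm15201 (0.79 to 0.81, and 0.31 to 0.49). Over the 18 ExE libraries, where the 3 C1q genes had few counts, the list began with Lix1l, Padi2, Hoxd10, Medag and Hoxd8 and went on to S100a4, Hoxa10, Col6a1, Lynx1 and Tns1 (r 0.77 to 0.86). The libraries of a stage share depth and scaling, and these values are given as a description.

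The same lists were tested in oocytes and blastocysts. In oocytes 0 of 10 tested macrophage genes were called by edgeR in either fit, and 4 were lower at an unadjusted p under 0.05 (median log2 fold change -0.39, against 0.01 over all genes). Of 10 tested genes of decidua and uterine stroma 7 were lower at that p (median -2.07). The share of all genes lower at that p was not counted, so neither count is read as a shift of its list. The summed macrophage list was 204 to 241 CPM in WT and 169 to 188 CPM in matKO oocytes. In blastocysts 2 of 5 tested macrophage genes were called higher, and 1 in the second fit, where 5.58% and 2.75% of all genes were. Fcgr3, an IgG receptor, rose by 1.50 ± 0.25 log2 units (SE; adjusted p 1.1e-04, and 4.4e-04) and Spi1, which encodes PU.1, by 0.59 ± 0.20 (adjusted p 0.040, and 0.073). Both were carried by all 28 blastocysts, at medians of 22.3 and 50.2 CPM in WT and 73.2 and 72.01 CPM in matKO, while C1qb, C1qc and Alox15 were near 0 there. Of 3 tested peritoneal macrophage genes 1 was called, Gata6, higher by 0.75 ± 0.14 (SE; edgeR adjusted p 4.9e-04, and 0.0019). At the 2-cell stage Gata6 was lower. Of the complement, lipoxygenase and cytokine lists, Calr was called higher, and Lta4h and Myd88 lower, Myd88 not in the second fit. Of 7 trophectoderm genes 4 were called lower, and 3 in the second fit.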

How the data were processed

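Counts per gene were deposited by the authors as 1 raw count table for each stage. Per the submitters' processing notes, Trim Galore, STAR, SAMtools and featureCounts were used with mm10. Versions, and how strand and multi-mapping reads were handled, are not given in the sources read. The 8 columns that match no label were not used. The 7 genes and the gene lists were chosen with earlier results of these data known.

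Each stage was fitted separately with edgeR 4.0.16 (R 4.3.3, limma 3.58.1): genes kept by filterByExpr at a minimum count of 10, TMM scaling, the robust quasi-likelihood test of genotype with sex as a term where both sexes occur, the identifier prefix as a term in blastocysts, and Benjamini-Hochberg adjustment over all genes of the stage (threshold 0.05). A second fit used estimateDisp dispersions, and DESeq2 1.42.0 was an alternative. The alternatives were DESeq2 size factors, no filter, a replicate block, the prefix settings, other carriage thresholds and leaving out each library. CPM is the count scaled to the TMM-adjusted total of the library. No 2 replicates agreed within sampling noise (lowest chi-square per degree of freedom 10.1, over genes that reached 20 counts in the 2 libraries). The fits were also run on simulated counts drawn with the estimateDisp dispersions. No library set apart and no prefix effect was built in, so the simulation cannot speak to either.

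The rule for named genes took all 7 members, up to 3 genes of each list carried by most libraries, up to 4 called genes of each list with the smallest p, and the most alike genes. Other genes named in the text were chosen after their values were seen.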

Additional observations from a re-analysis of the deposited data

Results flagged for a closer look

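A set was 1 gene in 1 group of 4 to 10 libraries of 1 stage, genotype and sex. Of 52 sets 19 held a library far from the others for the size of the group. The cut-offs flag about 1 in 20 by chance where values are normally distributed. CPM with many zeros are not, and only groups with at least 1 library carrying the gene were looked at. None of the 19 is therefore read against that rate. The 7 genes were chosen by their 2-cell counts, so the 12 sets of the 2-cell stage among the 19 are a description and cannot be read against that rate. The matKO female 4 embryo of the 2-cell stage accounts for 7 of them: C1qa at 7.53 CPM (nearest library of its group 2.43), C1qb at 125 (14.0), C1qc at 127 (0), Saa3 at 183 (2.90), Lyz2 at 2641 (96.4), Alox15 at 329 (6.49) and Cd68 at 32.03 CPM (7.70).

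WT female 4 of the 2-cell stage stood apart for C1qc at 4.12 CPM (nearest 0.196), Saa3 at 3.26 (0.896) and Cd68 at 12.7 CPM (1.96). WT male 6 stood apart for Saa3 at 2.69 CPM (0.311) and matKO male 3 for C1qa at 2.38 CPM (0.424). In blastocysts C1qa reached 1.01 CPM in WT male 6 (0.248) and 11.7 CPM in matKO female 5 (2.14), and Lyz2 reached 10.2 CPM in WT male 5 (3.59) and 4.87 CPM in matKO male 5 (1.39). In ExE C1qb stood at 1.02 CPM in WT female 3 (0.195) and 1.60 CPM in matKO female 4 (0.196), on 6 and 20 counts, and Lyz2 at 1.90 CPM in WT male 4 (0.133).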

How the results depend on the processing

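None of the 7 genes was called in oocytes under any of 5 alternatives or with any 1 oocyte left out (0 to 0). In blastocysts the count went from 0 to 1 without the prefix term, and from 0 to 1 over the fits that left out 1 blastocyst. In ExE it went from 1 to 2 with the replicate block, which added Lyz2 (3.05, adjusted p 0.046), and was 1 to 2 with 1 piece left out. The count of called macrophage genes at the 2-cell stage was 5 instead of 0 without a filter, and 0 to 1 with 1 embryo left out. All 7 genes were carried by 3 libraries at 0.5 CPM against 1 at 1 CPM. The log2 fold change of C1qb in oocytes turned to -0.018 with estimateDisp, -0.027 with DESeq2 and -0.63 with the replicate block, and that of Lyz2 in blastocysts to 0.59 within D405T. Leaving out 1 oocyte gave -1.65 to 0.35 for C1qa, -0.61 to 0.28 for C1qb, -0.45 to 1.90 for Saa3 and -0.40 to 0.31 for Cd68. The 2-cell difference of means (matKO minus WT) ran from -1.21 to 10.3 CPM for C1qc and from -0.741 to 239 CPM for Lyz2, negative without matKO female 4. The Cd68 change in ExE was called in all 5 alternatives (1.56 to 1.69) and all 18 fits without 1 piece (1.46 to 1.74). Where a cause is not given it was not tested.

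Libraries with the same replicate number deviated together (correlation over 0.1) in 1 of 3 numbers in oocytes, 1 of 11 at the 2-cell stage, 6 of 13 in blastocysts and 0 of 8 in ExE. What a shared number stands for is not given in the labels. In blastocysts many libraries with the same number also share the identifier prefix, which was not removed before this correlation, so number and prefix cannot be told apart there. With the replicate block the counts above were 0, 0, 0 and 2. In 2-cell libraries, down to 1.05 megacounts, a count of 0 allows a level of up to 2.69 CPM.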
